A study of Drosophila melanogaster with 3 samples.

Results

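Of the Stwl summits that passed the irreproducible discovery rate (IDR), 311 or 4.30% lay at the 3' end of a protein-coding transcript and away from every promoter. A summit is the base of highest signal in a peak. It was taken as a 3' end summit when it lay more than 500 bp from every annotated transcription start site (TSS) and within 500 bp of the 3' end of a protein-coding transcript in the Ensembl annotation of BDGP6, the assembly also known as dm6. The rest of the IDR list were 4934 summits at promoters, within 500 bp of a TSS, and 1996 other distal summits, away from both. The 3' end summits were 13.5% of the 2307 summits away from promoters, and belonged to 298 genes. The strand of the next protein-coding gene downstream set the classes: at 133 summits that gene lay on the opposite strand, so that both 3' ends faced each other (convergent), at 177 it lay on the same strand (tandem), and at 1, at CG17636 near the end of the X chromosome, no next gene was annotated. The distances and strands chose the summits, so their share and their class are descriptions.

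The chromatin came from whole Drosophila melanogaster embryos 0 to 10 h old, of a stable transgenic line that makes Stwl (stonewall) as a C-terminal GFP fusion, and an antibody against GFP was used for the precipitation. Shearing by sonication gave fragments of 200 to 800 bp. The labels describe 3 biological replicates of 1 group, with no other genotype, treatment or time, so replicates were compared with each other and classes of summits within them. The labels do not name the promoter of the transgene, and whole embryos mix all cell types, so binding in few cells and weak binding in many cannot be told apart.

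Stwl is a DNA-binding nuclear protein with a MADF domain, known for its role in keeping female germline stem cells. At the 3' end of a gene the transcript is cut and polyadenylated downstream of a poly(A) signal, and the polymerase runs on past that place before it leaves the DNA. The stretch behind it separates the gene from its neighbour: from another 3' end in a convergent pair, and from the promoter of the next gene in a tandem pair. In Drosophila such stretches are among the places where insulator proteins such as Su(Hw), CTCF and BEAF-32 bind.

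The sequences of the strongest intergenic 3' end summits show what lay under the signal. Each is 101 bases of the plus strand of the RefSeq Release 6 genome, centred on the summit, from the 3 strongest convergent and the 3 strongest tandem members with a window that holds no annotated UTR or coding base. Capitals mark matches on either strand to GCATACTT, GCGCCNNCT, TATCGATA, GNTGGCG or AAGCAG, and in these windows only the last of them occurred. They come, in this order, from chrX:6361383-6361483, chr3R:12403058-12403158, chr3L:4553535-4553635, chr3R:16004157-16004257, chrX:10929792-10929892 and chr3L:18088184-18088284.
kdn, convergent with swa: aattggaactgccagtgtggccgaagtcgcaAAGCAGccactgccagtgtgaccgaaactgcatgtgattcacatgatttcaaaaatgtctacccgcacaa
Sol1, convergent with Cyp9f2: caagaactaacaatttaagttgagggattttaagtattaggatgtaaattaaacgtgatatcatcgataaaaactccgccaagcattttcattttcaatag
CG11357, convergent with CG33777: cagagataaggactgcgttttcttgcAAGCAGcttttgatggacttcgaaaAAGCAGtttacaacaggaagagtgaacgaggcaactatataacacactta
srp, tandem with GATAe: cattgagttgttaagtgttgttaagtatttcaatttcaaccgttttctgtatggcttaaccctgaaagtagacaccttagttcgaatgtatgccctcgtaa
CG2145, tandem with Myo10A: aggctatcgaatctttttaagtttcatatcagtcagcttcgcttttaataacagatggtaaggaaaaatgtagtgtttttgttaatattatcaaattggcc
CG13698, tandem with CG34253: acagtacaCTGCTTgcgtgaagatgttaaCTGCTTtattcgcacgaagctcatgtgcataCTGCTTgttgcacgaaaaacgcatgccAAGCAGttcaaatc
The window of CG13698 holds 4 copies of AAGCAG counted on both strands, that of CG11357 holds 2 and that of kdn 1. Other motifs looked for below were not marked, and some of them also lay in these windows. Motif 1 of M1BP was in that of kdn, and the core of BEAF-32 sites in those of Sol1 and CG2145. The shorter Su(Hw) core and the poly(A) signal were in that of CG13698, and the core of Pho sites in that of srp.

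Shorter stretches of 30 bases show the 3 longer motifs whose shares at 3' end summits are given below, at the 3 strongest members that hold each. Capitals mark the motif, and each stretch is written on the strand on which the motif reads as named. The first is GCATACTT, a longer core of Su(Hw) sites, at chr3R:16004245-16004274 (minus strand), chr3R:31264147-31264176 (minus) and chr3R:22072754-22072783 (minus).
srp: agaaatatgtaGCATACTTacgagggcata
CAH5: atcaaagtataGCATACTTttaggtggaag
how: aaaatctcaatGCATACTTtatggcactga
The second is GCGCCNNCT, the core of CTCF sites, at chr3L:13845413-13845442 (plus), chr3R:11393038-11393067 (minus) and chr3R:30789471-30789500 (minus).
Tsp68C: tgacaccaatGCGCCCTCTagcgagctacg
pros: ccgtcagagctGCGCCTGCTtttgtaaagc
wts: ggaggcacgtgGCGCCACCTagtggagagt
The third is TATCGATA, the DNA replication-related element (DRE) bound by Dref, whose CGATA is also the core of BEAF-32 sites, at chr3L:16390977-16391006, chr2L:16507872-16507901 and chr3R:21406902-21406931, all on the plus strand.
CG44836: ttggcttggtcTATCGATAaatggcgccaa
Tpr2: agagtggtaacTATCGATAagtatggcgcg
CG7907: gaagggatgtgTATCGATAatatcacagaa

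Most of the summits lay just past the nearest transcript 3' end. For 60 of the 311 that end lay more than 500 bp inside the outermost end of its gene. A summit past such an end can still lie in the gene. Of the 311, 245 or 78.8% were downstream of the nearest 3' end, and 174 or 56.0% lay at least 50 and less than 300 bp past it. Over all 311, those on the transcribed side of that end counted as negative, the median position was 144 bp past the end (quartiles 47.5 and 244). That median was 134.5, 133.5 and 145.5 bp when the same rule was applied to the strongest summits of replicates 1, 2 and 3, as many in each as the IDR list holds. Convergent summits had a median of 114 bp and tandem summits one of 170 bp. When the rule was applied to all 30000 peaks of the pooled list, which adds weaker peaks, 1963 summits met it and their median was 47 bp past the end.

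The room available differs with position, since bases near a TSS cannot hold a member, so summits were also counted per megabase (Mb) of bases that the rule allows. The density was 12.6 per Mb in the last 500 bp of the transcribed side (95% exact Poisson limits 9.71 to 16.0), 22.1 (12.1 to 37.1) from the end to 49 bp past it, 72.1 (61.8 to 83.7) from there to 300 bp and 37.5 (28.4 to 48.6) from 300 to 500 bp. These limits cover counting error only. The highest bins of 50 bp held 46 summits at 100 to 149 bp and 45 at 200 to 249 bp past the end. Poisson limits of the stretch from 50 to 300 bp did not overlap those of any of the other 3 stretches. That stretch takes in the highest bins of the same profile, so this separation is only described.

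**Figure D1:**
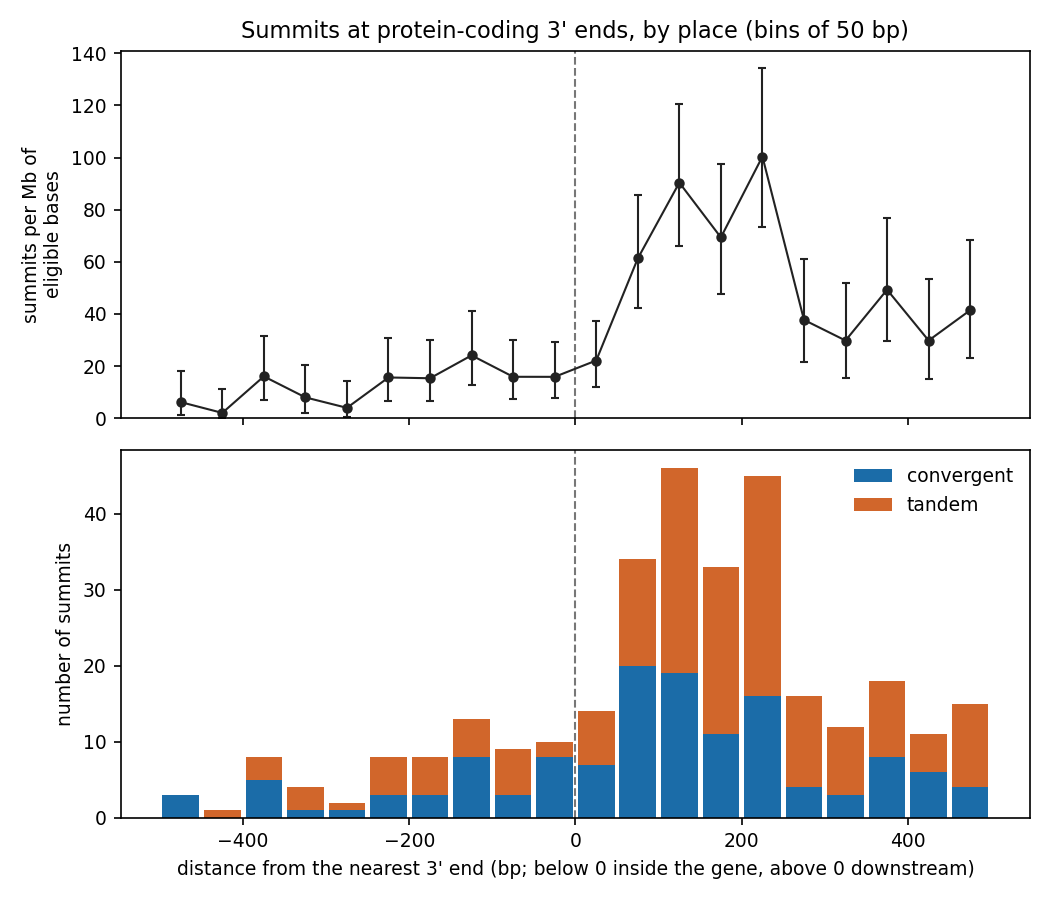
Top, 3' end summits of the IDR list per Mb of bases allowed by the rule, in bins of 50 bp by distance from the nearest protein-coding 3' end, with 95% exact Poisson limits. Bottom, the number of summits in the same bins for the 133 convergent and 177 tandem members. The density was 72.1 per Mb from 50 to 300 bp past the end and 12.6 per Mb inside the gene.

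The annotation under the summits followed their place. Of the 311, 169 were intergenic, 93 lay in a 3' UTR, 43 in an intron, 5 in coding sequence and 1 in an exon of a noncoding gene. One of them lay in an annotated transposable element. A transcript end more than 500 bp inside the outermost end of its gene was the nearest end for 60 summits, and 28 belonged to genes nested whole in another protein-coding gene. The median distance to the nearest TSS was 1712 bp, and 139 summits were over 2000 bp from any TSS. The nearest other IDR summit lay at a median of 4992 bp and was a promoter summit in 183 cases, of which 13 lay within 1000 bp. For 13 genes 2 summits were counted, so that members at those genes are not independent of each other.

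Among bases away from TSSs, those within 500 bp to either side of a 3' end held more summits than the rest, but only past the end. The density was 31.7 per Mb (28.2 to 35.4) within 500 bp of a 3' end and 18.9 (18.1 to 19.7) elsewhere, a ratio of 1.68. On the transcribed side it was 12.6 per Mb (9.71 to 16.0), below that elsewhere. From the end to 49 bp past it the limits, 12.1 to 37.1, held the density elsewhere. The next stretches past the end had 72.1 and 37.5 per Mb. The ratios by replicate were not split by side. In replicates 1, 2 and 3 the log2 ratio was 0.71, 0.83 and 0.73, a mean of 0.76 ± 0.065 (SD, n = 3), higher near 3' ends in 3 of 3. The exact sign-flip permutation test gave a two-sided p = 0.25, the smallest that 3 replicates allow, so no difference between classes of summits could pass 0.05 here. The share of the strongest summits of a replicate that met the rule was 4.35% ± 0.17 (SD, n = 3). Over the whole pooled list the log2 ratio was 0.21.

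Convergent ends held fewer summits per base than tandem ends. Within 500 bp of the outermost end of a gene, the IDR list had 106 summits on 4.46 Mb at convergent ends, 23.8 per Mb (19.5 to 28.8), and 142 on 3.21 Mb at tandem ends, 44.3 per Mb (37.3 to 52.2). The log2 ratio of convergent to tandem was -0.90. In replicates 1, 2 and 3 it was -0.78, -0.83 and -0.80, a mean of -0.81 ± 0.022 (SD, n = 3; exact sign-flip permutation p = 0.25, lower at convergent ends in 3 of 3). Over the pooled list it was -0.30. These densities were not split by the gap to the next gene, and 2853 of 7656 convergent but 162 of 6284 tandem ends overlapped that gene.

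The length of the gap to the next gene differed between the classes. The median gap at members was 686 bp for convergent and 1851 bp for tandem summits. Of the outermost ends, 1.36% of 7656 convergent and 2.23% of 6284 tandem ones had a member. Where the genes were over 500 and up to 1000 bp apart, 2.75% of convergent ends (95% Wilson interval 1.5 to 4.98) and 2.88% of tandem ends (1.97 to 4.18) had one. From there to 5000 bp these shares were 3.73% (2.60 to 5.34) and 4.40% (3.43 to 5.62), and beyond 5000 bp they were 2.37% (1.61 to 3.47) and 4.06% (3.08 to 5.34). The intervals of both classes overlapped in each of these 3 gap classes, but the shares are per end and not per base: in gaps up to 1000 bp the TSS of a tandem neighbour bars the last 500 bp of the gap, and a convergent neighbour's end does not. Where the gap was 500 bp or less, 1.22% of convergent and 0.225% of tandem ends had a member, but there the TSS of a tandem neighbour bars the whole gap by the rule. Where the 2 genes overlapped, 9 of 2853 convergent and 0 of 162 tandem ends had one (Wilson upper limit of the latter 2.32%).

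**Figure D2:**
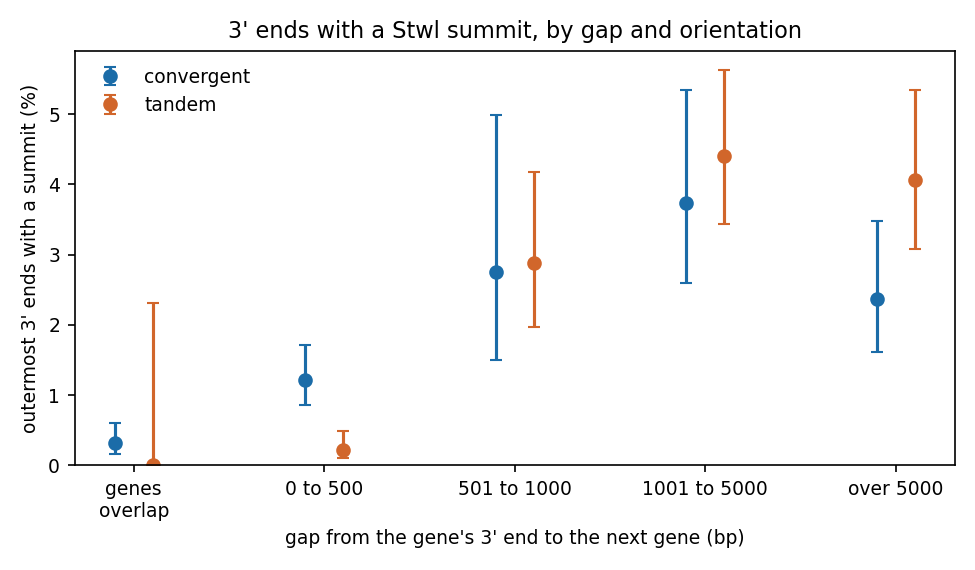
Share of outermost protein-coding 3' ends that had a 3' end summit, with 95% Wilson intervals, by the gap to the next gene and by its orientation. Shares were 3.73% for convergent and 4.40% for tandem ends with a gap of over 1000 and up to 5000 bp, and at or below 1.22% where genes overlapped or lay within 500 bp.

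In close convergent pairs the summit mostly lay between the genes. Of the 42 members at an outermost convergent end with a gap of 0 to 1000 bp, 33 lay in the gap and 9 inside the gene of the nearest end, which is the only gene of the pair that the assignment allows. The median gap of these pairs was 379 bp. The pairs Sol1 and Cyp9f2, a cytochrome P450 gene (gap 437 bp), and Indy, a citrate transporter gene, and Cat, which encodes catalase (443 bp), are examples with the summit 206 and 121 bp past the first gene's end.

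The signal of 3' end summits lay between that of promoter summits and that of other distal summits. The authors' signal value had a median of 392.7 at 3' end summits (lowest 194.9, highest 6130), 465.6 at the 4934 promoter summits and 316.0 at the 1996 other distal summits. It has no unit, and each list has a scale of its own, so replicates were compared by percent rank, in which 0 is the strongest of 30000 peaks. The median percent rank of the 3' end summits was 13.6, 13.4 and 12.1 in replicates 1, 2 and 3, and that of other distal summits was 16.2, 16.6 and 16.1. The difference was -3.28 ± 0.68 percent rank points (SD, n = 3; exact sign-flip permutation p = 0.25), with 3' end summits stronger in 3 of 3. Against promoter summits it was 2.92 ± 1.06 (n = 3; exact p = 0.25), weaker in 3 of 3.

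Convergent and tandem summits did not differ in strength beyond the spread between replicates. Their medians in the IDR list were 382.3 and 399.4. The difference in percent rank, convergent minus tandem, was 1.5, -0.087 and 1.01 in replicates 1, 2 and 3, a mean of 0.81 ± 0.81 (SD, n = 3; exact sign-flip permutation p = 0.5).

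**Figure D3:**
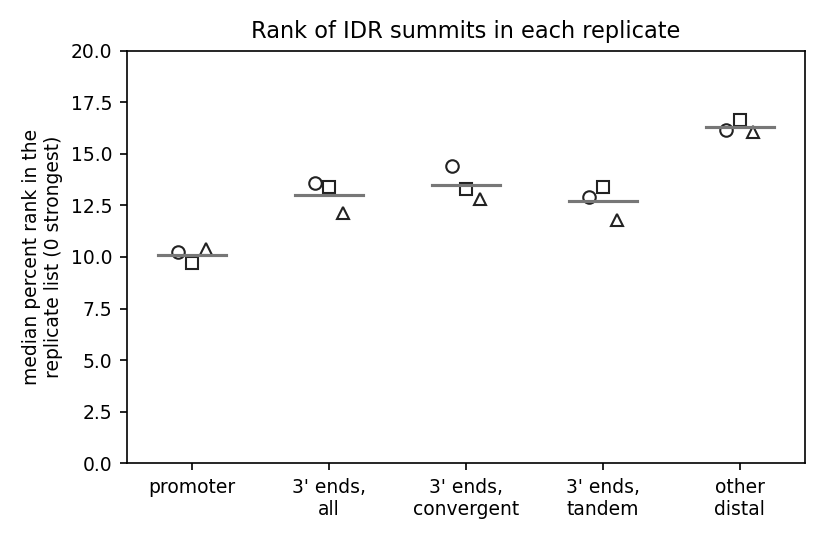
Median percent rank by signal value (0 is strongest, vertical axis) of IDR summits matched in each replicate list, for promoter summits, all 3' end summits, both classes of them and other distal summits. Circles, squares and triangles are replicates 1, 2 and 3, and bars are their means. The 3' end summits had medians from 12.1 to 13.6, between promoter summits and other distal summits in every replicate.

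Of the 311 summits, 204 or 65.6% (95% Wilson interval 60.2 to 70.7) had a summit within 150 bp among the strongest of all 3 replicates, against 67.6% of all IDR summits, 73.4% of promoter summits and 53.6% of other distal summits (51.4 to 55.7). The share of members found was 78.8% in replicate 1, 81.4% in replicate 2 and 91.6% in replicate 3, and 4 were found in none. It was 66.9% for convergent and 64.4% for tandem summits. In the whole list of replicate 3, 309 of the 311 had a match. Across members matched in both lists, Spearman's rho of the signal values was 0.78 for replicates 1 and 2 (285 members), 0.83 for 1 and 3 (295) and 0.81 for 2 and 3 (295). These members share libraries and a control, so the coefficients only describe these lists.

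The strongest 3' end summit lay between 2 genes of GATA factors. It was 122 bp past the end of srp (serpent, FBgn0003507), a GATA factor of blood, fat body and endoderm, at 16004207 on 3R, and the next gene in tandem was GATAe, a GATA factor of the gut, 5019 bp on. Its signal value was 6130, rank 7 of the IDR list, and its ranks in replicates 1, 2 and 3 were 7, 10 and 7. No IDR summit lay within 500 bp of a TSS of either gene.

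The other strong tandem summits lay mostly between genes as well. Past CG2145 and before the unconventional myosin gene Myo10A, a summit with a signal value of 4295 ranked 12, 15 and 13 in the 3 replicates. At CG13698 the signal value was 3648 and the ranks were 21, 27 and 22. The summit past CG5445, 243 bp beyond its end and upstream of the homeobox gene B-H2 (gap 9105 bp), had 2825 and ranks of 40, 47 and 36. That of ss (spineless), a bHLH-PAS factor that sets antennal and leg identity, lay 127 bp past the gene with 2582 and ranks of 49, 56 and 50. The order of these 5 summits was the same in every replicate. The remaining 7 of the 12 strongest tandem summits were at AP-1sigma, a clathrin adaptor subunit, Tsp68C, a tetraspanin followed by the hemocyte gene Hml, the acetylcholine receptor subunit nAChRalpha5, the gustatory receptor Gr28a followed by santa-maria, the cyclophilin Moca-cyp, the Wingless receptor fz2 and the kinase Tlk, with signal values from 1182 to 1993.

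Among convergent pairs the strongest summit lay between kdn, the citrate synthase gene, and swa (swallow), which acts in the localisation of bicoid mRNA in the oocyte. It was at 6361433 on X, 110 bp past kdn, in a gap of 2094 bp. Its signal value was 3534 and its ranks were 18, 29 and 25. The next, with 3158 and ranks of 25, 46 and 31, lay in a 3' UTR of CkIIbeta, the regulatory subunit of casein kinase 2, at an end 4286 bp inside the outermost one. The summit between Sol1 and Cyp9f2 had 2420 and ranks of 83, 36 and 61, and that between CG11357 and CG33777 had 2323 and ranks of 58, 65 and 64.

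The other 8 of the 12 strongest convergent summits had signal values from 1406 to 1770. They were at Lrch, at stc, a zinc finger gene, at CG4702, at CG2120 facing Smox, a Smad of activin signalling, at CG44836 facing RAF2, at the tyrosine aminotransferase gene Tat, between Indy and Cat, and at the synaptotagmin gene Sytalpha. All 24 summits of both sets were found among the strongest of every replicate, and the lowest rank of any of them in any replicate was 552, at Tlk. Of the 12 convergent ones 6 were intergenic, and of the 12 tandem ones 9. A promoter summit was present at the gene itself for 7 and 5 of them, and at the next gene for 6 and 2.

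**Figure D4:**
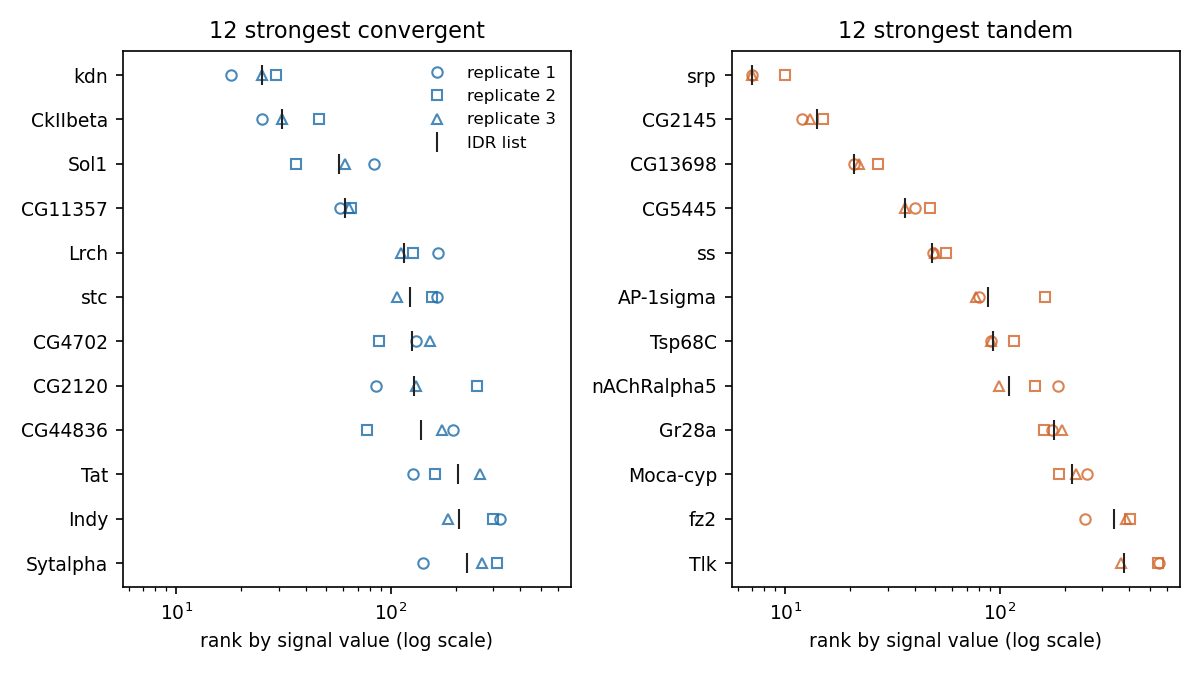
Rank by signal value (log axis, 1 is strongest) of the 12 strongest convergent and 12 strongest tandem 3' end summits, named by the gene of the 3' end. Open circles, squares and triangles are replicates 1, 2 and 3, and the tick is the rank in the IDR list. srp ranked 7, 10 and 7, and all 24 lay at or above rank 552 in every replicate.

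Genes with a 3' end summit had a promoter summit about as often as any gene. Of the 298 genes, 126 or 42.3% (36.8 to 48.0) had an IDR summit within 500 bp of one of their own TSSs, beside 42.1% of all 13945 protein-coding genes. Of the next genes, 33.8% (28.6 to 39.4) had one. Within 250 bp of a TSS the share of next genes was 29.4% against 37.8% of all genes, and within 1000 bp 48.5% against 45.6%. The comparison at 1000 bp is partly fixed by the rule. There 66 members, 53 of them tandem, lay within reach of a TSS and could themselves be counted. The turn in direction is therefore not read as a result. For next genes in tandem, whose promoter lies on the side of the summit, the share was 29.2% (22.8 to 36.4), and for convergent next genes it was 40.3% (32.2 to 48.9). At 48 of 297 pairs both genes had a promoter summit and at 118 neither had. By construction a tandem next gene has no TSS within 500 bp of the 3' end summit itself.

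The lists examined had 0 to 4 genes with a 3' end summit each, counts too small to set any list apart. Over all protein-coding genes 298 of 13945 or 2.14% had one. Among 93 genes with symbols of cytoplasmic ribosomal proteins, a pattern that also takes in paralogs, 4 did: RpS26 (signal value 604.1), RpL17 (457.5), RpS23 (265.0) and RpL13 (211.5). All 4 also had a promoter summit. No gene had one among 73 mitochondrial ribosomal protein genes, 48 proteasome genes, 19 genes of insulator proteins or 8 Hox genes. The germline list of 21 had Sxl, the switch gene of sex determination, with a signal value of 321.0 at a transcript end 8371 bp inside the outermost one. The cell cycle list of 18 had 3, which were stg (360.5), the Cdc25 phosphatase of mitosis, fzr (276.9), an activator of the anaphase-promoting complex, and E2f1 (201.6), a regulator of S phase genes.

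The chromosome arms differed in their share. On X 71 of 2196 protein-coding genes or 3.23% (2.57 to 4.06) had a 3' end summit, and on 2R 36 of 2852 or 1.26% (0.91 to 1.74). Arms 2L, 3L and 3R lay between with 2.33%, 2.41% and 1.75%. Of the IDR summits, 5.27% on X and 2.89% on 2R were 3' end summits. Chromosome 4 had 3, at 80 genes.

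Each motif was looked for on either strand up to 100 bp to both sides of a summit. The same search was made in windows placed 144 bp past the outermost 3' end of 12353 genes with no IDR summit within 500 bp, the place where members have their median summit. These windows were not held to the limit of 500 bp from every TSS that members meet. Some of them can therefore lie at a promoter or in a neighbouring gene. A match describes letters in the window and is not taken as a bound site. Windows of 3' end summits had a median GC content of 35.3%, against 38.3% in those windows of ends without a summit, 38.8% at other distal and 37.3% at promoter summits.

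The cores of CTCF and Su(Hw) sites were more frequent at 3' end summits than at 3' ends without one. GCGCCNNCT, the core of CTCF sites, was in 38 of 311 windows or 12.2% (95% Wilson interval 9.03 to 16.3), against 1.39% of ends without a summit, 6.21% of other distal and 3.14% of promoter summits. GCATACTT, a longer core of Su(Hw) sites chosen after frequent words had been seen, was in 37 or 11.9% (8.76 to 16.0), against 1.20%, 5.66% and 0.831%. TGCATA, the Su(Hw) core of the first list, was in 19.9% against 12.4%, 17.6% and 10.5%, and 36 of its 62 windows lacked GCATACTT. Among the 146 members in the stronger part of the IDR list TGCATA was in 14.4% (9.60 to 21.0), an interval that holds the 13.1% of windows centred on ends without a summit. The interval of GCGCCNNCT did not overlap that of promoter summits. GCATACTT was picked from words in excess at these same members, so its share is only described.

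The promoter motifs had another order. TATCGATA was in 24 of 311 windows or 7.72% (5.24 to 11.2), against 0.486% of ends without a summit and 2.71% of other distal summits, but 16.1% of promoter summits. CGATA was in 107 windows or 34.4% (29.3 to 39.9), 83 of them without the whole DRE, against 22.5% of ends without a summit, 26.3% of other distal and 53.9% of promoter summits. GGTCACAC, the Motif 1 of M1BP, was in 6 windows or 1.93% (0.89 to 4.14). It was in 0.413% of ends without a summit, 6.06% of other distal and 13.8% of promoter summits. GAGAG, read by GAGA factor, was in 15.1% against 17.6% of ends without a summit, 26.8% of other distal and 17.3% of promoter summits. CAGGTAG, read by Zelda, was in 1 window, and in 1.1% of ends without a summit. The E-box CAGCTG was in 5.79% against 7.46% of ends without a summit, 7.82% of other distal and 17.1% of promoter summits. GCCAT, the core of Pho sites, was in 30.5% of the members' windows and in 31.8% of ends without a summit.

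The poly(A) signal was less frequent at the summits than in windows centred on 3' ends, and more frequent than in windows placed 144 bp past them. Neither comparison is matched for position. The members' median summit lay 144 bp past the end, but the lower quartile was 47.5 bp and 66 summits lay on the transcribed side. Part of the members' windows therefore take in the end itself, which windows placed 144 bp past an end do not. AATAAA was in 153 windows or 49.2% (43.7 to 54.7) on either strand, while windows centred on 3' ends without a summit had it in 79.3%, and those placed 144 bp downstream in 41.3%. On the strand of the gene alone it was in 29.9% of members and 66.1% of the windows centred on ends. The windows placed downstream were not searched on that strand alone.

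**Figure D5:**
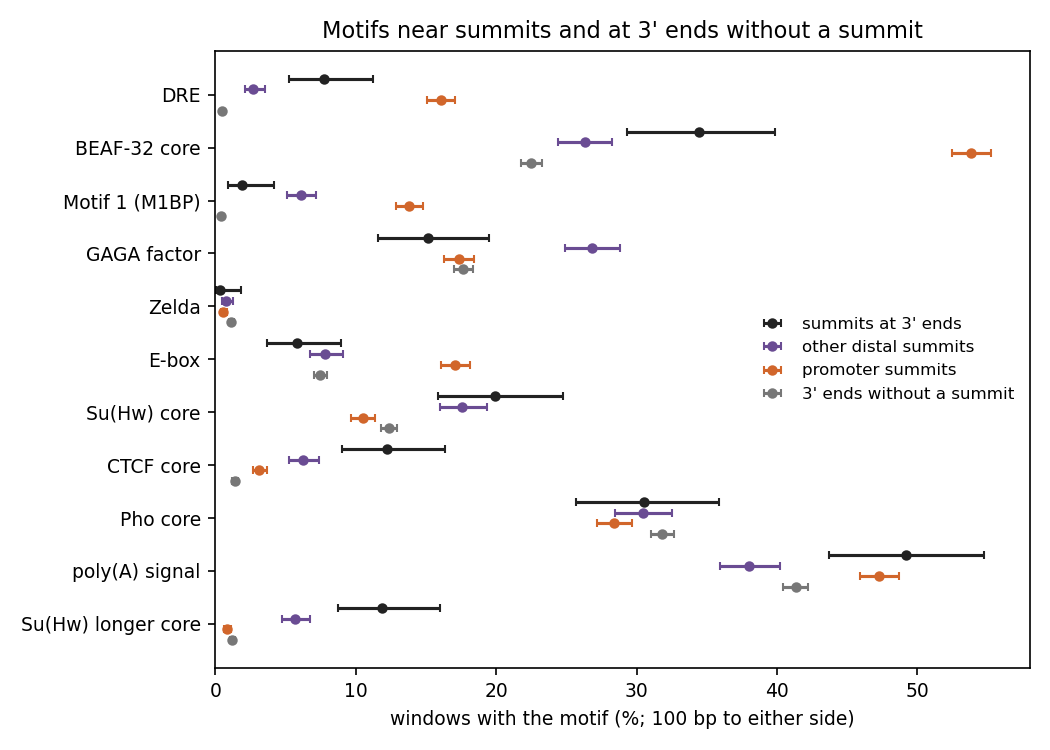
Share of windows, 100 bp to either side, with a motif, with 95% Wilson intervals, at the 311 summits at 3' ends, at other distal and promoter summits, and 144 bp past 3' ends without a summit. The CTCF core and the longer Su(Hw) core had their highest shares at 3' end summits, 12.2% and 11.9%, and the DRE and Motif 1 had theirs at promoter summits, 16.1% and 13.8%.

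The 3 longer motifs seldom shared a window, and the members that held them differed in signal. At least 1 of GCATACTT, GCGCCNNCT and TATCGATA was in 94 of 311 windows or 30.2% (25.4 to 35.5), against 14.0% of other distal summits, 19.4% of promoter summits and 3.05% of ends without a summit, and 5 windows had 2 or more. Matches lay at a median of 22.5, 34.0 and 29.5 bp from the summit. Among tandem members 27 of 177 had GCGCCNNCT and 25 had GCATACTT, and among the 133 convergent members 11 and 12 did, with overlapping intervals. Members with GCATACTT had a median signal value of 296.5 and 16 of 37 were found in all 3 replicates, those with GCGCCNNCT 474.0 and 26 of 38, and those with TATCGATA 432.7 and 17 of 24.

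GCATACTT had a lower share among the 50 strongest members than among the rest, but the intervals overlapped for all 3 of these motifs. The 50 strongest 3' end summits had signal values of 831.9 or more. Of these, 1 or 2.0% (0.35 to 10.5) had GCATACTT, that of srp shown above. Of the other 261, 36 or 13.8% (10.1 to 18.5) did. Other distal summits of 831.9 or more had it in 8.0% and weaker ones in 5.47%. Promoter summits had it in 0.371% and 0.921%. TATCGATA was in 8.0% of the 50 strongest and 7.66% of the others, and GCGCCNNCT in 8.0% and 13.0%, with overlapping intervals. AAGCAG, chosen after the windows had been seen and therefore only described, was in 19 of the 50 strongest or 38.0% (25.9 to 51.9), in 20 of the next 100 and in 17 of the remaining 161 or 10.6% (6.70 to 16.3). Windows of 3' ends without a summit had it in 10.9%. Other distal summits of 831.9 or more had it in 34 of 150 or 22.7%, and promoter summits as strong in 113 of 809 or 14.0%. Of the 56 members with the word, 23 had 2 or more copies and 12 had 3 or more, as in the window of CG13698, and 47 were found in all 3 replicates.

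Near the limits of the rule, CG6244 (503 bp from a TSS) and Apt1 (506 bp) were just inside and had signal values of 296.5 and 728.8, and summits 494 bp from a TSS near RpS27 (760.0) and 492 bp near Obp56c (303.0) were just outside. At the limit for the 3' end, gish (500 bp, 261.5) and numb (499 bp, 239.1) were inside, and DCTN1-p150 (507 bp, 231.9) and CG10479 (509 bp, 342.4) outside. In all, 1325 promoter summits also lay within 500 bp of a protein-coding 3' end and were left out by the rule.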

How the data were processed

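Per the deposited text files, each replicate peak list (30000 peaks) came from 1 library and a control, the pooled list from all 3 libraries and the control, and the IDR list (7241 peaks) from these lists. The sources used here do not give the aligner, the caller, versions or the IDR threshold. The build is dm6, per the labels. The signal value of each peak is the authors' own deposited number, on a scale of its own in each list, used to rank and describe peaks. Read depth is unknown.

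Summits were placed against the Ensembl annotation BDGP6.54 (release 115) and sequences read from RefSeq Release 6, with Python 3.11.15, numpy 2.4.6, pandas 2.3.3 and scipy 1.17.1. TSSs of all genes counted, pseudogenes included. Ties between 3' ends went to the outermost. Replicates were compared through their 7241 strongest summits, with matches within 150 bp, by exact two-sided sign-flip permutation tests. The 95% Wilson and Poisson limits leave out all but counting error, since summits are not replicates. Classification, motif search and the sign-flip test were tested on simulated data. Alternatives covered distances, lists, replicates left out and motif windows.

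The genes named are those of the 12 strongest convergent and 12 strongest tandem members, list genes with a member, members at the limits and those whose sequences are shown. Members, lists and motifs were chosen with earlier results of these data known.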

Additional observations from a re-analysis of the deposited data

How the results depend on the processing

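Over 88 alternative values, 39 stayed within a limit, 49 moved past it and 0 changed sign. Counts and shares cannot change sign, so the last number bears only on log2 ratios, median positions and rank differences. Whether a share lay above or below that of all genes was not part of it, and for bound promoters that varied, as given below. The limit was 1 SD between replicates for densities, positions, ranks and class shares, 1.5 times for counts of members and motifs, and the 95% Wilson interval for shares of members or genes with a property. There were 146 members in the 3620 strongest IDR summits, 1963 in the pooled list and 205 in a consensus of the replicates. The convergent percentage, 42.9, was 35.1 and 49.2 at TSS distances of 250 and 1000 bp, 44.3 and 41.9 at end distances of 250 and 1000 bp, 42.5 in the 3620 strongest, 50.9 in the pooled list, 45.7 with next genes of any kind, and 41.2 to 43.4 with a replicate left out. In the same order the log2 ratio of convergent to tandem density was -1.12, -0.94, -1.01, -0.71, -0.82, -0.30 and -0.83, and -0.98 to -0.81 with a replicate left out. The log2 ratio near ends was 1.04 at a TSS distance of 1000 bp, 1.11 and 0.43 at end distances of 250 and 1000 bp, 1.31 in the 3620 strongest, 0.21 in the pooled list, 1.03 in the consensus and 0.885 to 0.99 with a replicate left out. The median position was 116 and 174 bp at those end distances, 152.5 bp in the 3620 strongest, 47 bp in the pooled list, 154 bp for outermost ends alone and 134.5 to 142.5 bp with a replicate left out. Members found in every replicate were 57.2% with matches within 75 bp, and 69.1% to 75.6% with a replicate left out. Genes with a bound promoter were 36.2% and 51.7% at TSS distances of 250 and 1000 bp, where all genes had 37.8% and 45.6%. For next genes these values were 29.4% and 48.5%. At 1000 bp the 3' end summits themselves could be counted, as given above. The cause of these shifts was not tested. Leaving out a replicate also replaces the IDR list by summits shared by the other replicates.

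Of the 10 motifs of the first list, 6 had a Wilson interval above the share at 3' ends without a summit, 8 in windows of 50 bp to either side, 5 in windows of 200 bp, 5 in the 3620 strongest, where TGCATA was lost, and 6 against windows moved 144 bp downstream, where GCCAT was lost and AATAAA gained. The gain of AATAAA is not matched for position, as given above. The comparison with moved windows, the 4 added motifs and the split by strength were chosen after seeing the data, as was leaving out pseudogene TSSs, which gave 314 members. With 1 labelled group there are no groups to pair, and all comparisons of classes were made within replicates. Read depth is unknown, so weak summits cannot be given a detection limit.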

Other observations

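Among strand-collapsed words of 8 bases, TGTAAAAT stood second by the difference in share between 3' end summits and windows 144 bp past 3' ends without a summit. It was in 41 of 311 members or 13.2% (95% Wilson interval 9.87 to 17.4), 2.37% of those windows, 4.61% of other distal and 3.91% of promoter summits, and in 5 of the 50 strongest members. AGATGGCG and AGGTGGCG, which overlap the CTCF core on the other strand, were in 8.04% and 7.72% of members and in 0.437% and 0.461% of ends without a summit. Their looser form GNTGGCG was in 56 members or 18.01%, 7.42% of ends without a summit, 11.3% of other distal and 9.10% of promoter summits, and 25 of these members lacked GCGCCNNCT. The words were chosen for this difference, so it is a description.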
